A study of Mus musculus with 6 samples.

Results

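The PPAR and metabolic nuclear receptor regulators described here are 9 genes chosen by name: Ppara, Ppard, Pparg, Rxra, Hnf4a, Nr1h4, Esrra, Ppargc1a and Ppargc1b. All 9 were found by Entrez gene ID (in this order 19013, 19015, 19016, 20181, 15378, 20186, 26379, 19017 and 170826) among the 18822 genes with a value, and all 9 averaged 1 FPKM or more over the libraries, the level required for testing. FPKM is a number of fragments divided by the length of the transcript and by the size of the library, so levels are per length and can be compared between genes. RNA came from glomeruli, the tufts of capillaries where the kidney filters blood, in 3 libraries of PR3 KO mice and 3 of WT mice. PR3 KO mice lack proteinase 3, a neutrophil serine protease whose gene is Prtn3. Both groups were on the C57BL/6J strain and both had diabetic kidney disease, so no group without diabetes was compared. The kind of knockout allele, the age and sex of the animals and the way diabetes was induced are not stated in the labels. Whether each library is from its own animal is not stated either, so the p-values speak only of how far these samples spread, which could be technical.

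Nuclear receptors are transcription factors whose activity is set by small lipophilic ligands. PPARs bind fatty acids and their derivatives and act on DNA as heterodimers with RXR. PPARα drives fatty acid oxidation in tissues that burn fat, the proximal tubule of the kidney among them. PPARγ is the master regulator of adipocytes, is also used by macrophages and endothelium, and is the receptor of the thiazolidinedione drugs. HNF4A maintains the identity of the proximal tubule, and FXR, the product of Nr1h4, is the receptor of bile acids. The PGC-1 coactivators bind no DNA themselves and raise mitochondrial and oxidative gene programmes through partners such as ERRα, the product of Esrra.

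RefSeq promoter windows (GRCm38.p6), from 250 bases before to 50 bases after the annotated start, were used for 8 of the 9 genes. They are shown for the 4 genes that differed between the genotypes below, with capitals for matches on either strand to the nuclear receptor half-site AGGTCA. The letters AGGTCA stood in 4 of the 12 member windows and in 16.3% of all 32851 promoter windows of the same length. Each window is printed in the direction of its gene, and the strand beside its coordinates is that of the gene on the chromosome. The Nr1h4 window held a match on the strand opposite the gene, beginning 214 bases before the start and read as TGACCT in the printed direction. Both windows shown of Pparg held a match, and the windows shown of Ppara and Hnf4a held none. A further window each of Hnf4a and Pparg without a match is not shown. The tandem repeat AGGTCANAGGTCA, which PPAR-RXR and HNF4A bind, the ERR element TCAAGGTCA and the HNF4 element CAAAGTCCA had no match in these 12 windows, against 0.04%, 0.423% and 0.475% of all windows. A match is a description of the letters and not a binding site. The FPKM are per gene, so they do not tell which of several starts was used.
Ppara chr15:85735526-85735825, plus strand: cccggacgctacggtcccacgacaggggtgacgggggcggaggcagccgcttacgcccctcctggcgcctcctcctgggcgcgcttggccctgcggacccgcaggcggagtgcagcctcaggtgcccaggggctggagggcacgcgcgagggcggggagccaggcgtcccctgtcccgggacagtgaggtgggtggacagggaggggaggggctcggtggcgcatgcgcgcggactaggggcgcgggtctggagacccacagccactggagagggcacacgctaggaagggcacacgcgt
Nr1h4 chr10:89506609-89506908, minus strand: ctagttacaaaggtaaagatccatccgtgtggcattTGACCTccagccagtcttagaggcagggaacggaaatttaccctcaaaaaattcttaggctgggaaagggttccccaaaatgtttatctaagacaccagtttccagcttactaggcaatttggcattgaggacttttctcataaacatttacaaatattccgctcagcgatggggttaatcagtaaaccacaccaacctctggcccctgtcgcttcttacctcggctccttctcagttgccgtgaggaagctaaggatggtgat
Hnf4a chr2:163546905-163547204, plus strand: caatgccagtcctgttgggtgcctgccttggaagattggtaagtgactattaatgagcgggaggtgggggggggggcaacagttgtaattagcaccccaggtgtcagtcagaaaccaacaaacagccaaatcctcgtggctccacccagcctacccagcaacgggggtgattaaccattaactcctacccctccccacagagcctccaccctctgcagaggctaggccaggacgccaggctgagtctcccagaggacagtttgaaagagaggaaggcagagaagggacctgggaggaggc
Pparg chr6:115360894-115361193, plus strand: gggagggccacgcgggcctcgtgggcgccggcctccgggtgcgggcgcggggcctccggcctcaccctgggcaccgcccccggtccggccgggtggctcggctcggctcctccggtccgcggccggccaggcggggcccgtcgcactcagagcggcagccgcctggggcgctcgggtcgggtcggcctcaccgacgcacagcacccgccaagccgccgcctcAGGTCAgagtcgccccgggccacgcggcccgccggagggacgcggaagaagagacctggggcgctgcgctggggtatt
Pparg chr6:115362099-115362398, plus strand: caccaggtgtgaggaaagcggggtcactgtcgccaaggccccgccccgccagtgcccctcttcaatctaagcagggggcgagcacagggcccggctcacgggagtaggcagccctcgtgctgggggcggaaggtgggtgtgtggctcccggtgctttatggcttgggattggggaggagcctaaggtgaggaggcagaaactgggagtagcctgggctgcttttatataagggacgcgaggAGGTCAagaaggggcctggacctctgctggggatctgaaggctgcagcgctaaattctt

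Libraries correlated at 0.987 to 0.988 (Spearman) within PR3 KO, 0.983 to 0.989 within WT and 0.954 to 0.978 between genotypes, with WT 2 the farthest from the PR3 KO libraries. The targeted gene Prtn3 averaged 0.07 ± 0.07 FPKM in PR3 KO libraries, against 0.297 ± 0.142 FPKM in WT libraries (SD, n = 3 each), levels too low to be a strong check of the labels. Among the 12388 genes tested, those averaging 1 FPKM or more, 52.8% differed, of which the part that rose in PR3 KO was 11.7% of the tested genes and the part that fell 41.1% (limma on log2(FPKM + 1), Benjamini-Hochberg adjusted p under 0.05). The median log2 fold change of these genes was -0.26, and member values are also given relative to it. After median-of-ratios scaling 25.6% rose and 22.2% fell. Of 20 proximal tubule markers 18 rose and 0 fell by limma (18 and 0 at an unadjusted p under 0.05), and their mean log2(FPKM + 1) was 8.38 to 8.41 in PR3 KO and 7.07 to 7.79 in WT. Their summed level, largely that of Kap, was 51195 to 68869 FPKM in PR3 KO and 9509 to 25496 FPKM in WT. All 12 markers of glomerular endothelium and all 10 of macrophages fell. Of 12 podocyte markers 6 fell, and of 8 markers of mesangium and smooth muscle 4 fell. Of 10 markers of the loop, distal tubule and collecting duct 5 fell. In each of the podocyte, mesangial and distal tubule lists 0 rose and 50% fell, beside 41.1% of all tested genes that fell. In these bulk samples, fewer cells of a type and less RNA per cell cannot be told apart.

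Of the 9 regulators, Ppara, Nr1h4 and Hnf4a rose in PR3 KO, Pparg fell, and 5 did not pass the test. This is 33.3% rising and 11.1% falling, beside 11.7% and 41.1% of all tested genes (52.8% in either direction). The libraries of the genotypes did not overlap in 5 of the 9 regulators, 4 higher and 1 lower in PR3 KO, beside 65.1% of all tested genes, 16.0% higher and 49.1% lower. The median log2 fold change of the 9 was 0.05 as deposited and 0.38 with median-of-ratios scaling, and it turned to -0.11 when library sums were made equal, to -0.02 without WT 2 and to -0.18 with the level of proximal tubule markers as a covariate. The median of all tested genes was 0.03 with median-of-ratios scaling, -0.43 with equal library sums, -0.21 without WT 2 and -0.16 with the covariate.

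**Figure D1:**
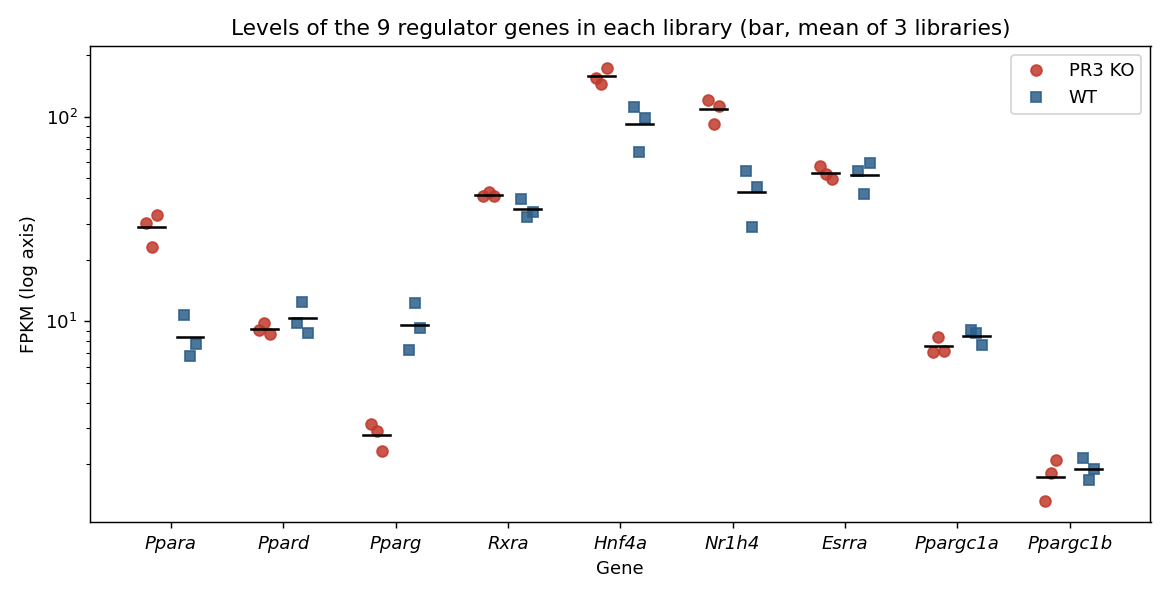
FPKM of each of the 9 genes (log axis) in the 3 PR3 KO libraries (circles) and the 3 WT libraries (squares), with a bar at the mean of each genotype. Ppara, Hnf4a and Nr1h4 lie higher in every PR3 KO library than in any WT library, Pparg lies lower, and the ranges of Ppard, Esrra, Ppargc1a and Ppargc1b overlap.

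Ppara, which encodes the PPAR of fatty acid oxidation, was at 30.40, 23.06 and 33.13 FPKM in PR3 KO 1, 2 and 3, against 10.78, 6.74 and 7.76 FPKM in WT 1, 2 and 3. Every PR3 KO library was above every WT library, and the lowest PR3 KO value was PR3 KO 2. The means were 28.9 ± 5.21 FPKM in PR3 KO and 8.43 ± 2.10 FPKM in WT (SD, n = 3 each), a ratio of 3.43. The log2 fold change was 1.67 (SE 0.19, 95% interval 1.24 to 2.10, limma adjusted p = 0.000838), or 1.93 relative to the median of all tested genes, and it was larger than that of 99.8% of them. Among the 18822 genes of a library, ordered by FPKM, Ppara held places 2441 to 3314 in PR3 KO and 6493 to 8617 in WT. Places within a library do not depend on its scaling.

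Ppard, the PPAR expressed in most tissues, was at 9.11, 9.78 and 8.67 FPKM in PR3 KO and 9.87, 12.42 and 8.77 FPKM in WT. The genotypes overlapped, and WT 2 was the highest library. Its log2 fold change of -0.15 did not pass (95% interval -0.45 to 0.16, limma adjusted p = 0.372), and it was 0.16 with median-of-ratios scaling.

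Pparg was at 3.16, 2.90 and 2.32 FPKM in PR3 KO and 7.24, 12.24 and 9.28 FPKM in WT. All 3 PR3 KO libraries lay below all 3 WT libraries, of which WT 2 was the highest. The means were 2.79 ± 0.430 FPKM in PR3 KO and 9.59 ± 2.51 FPKM in WT (SD, n = 3 each), a ratio of 0.291. The log2 fold change was -1.46 (SE 0.18, 95% interval -1.88 to -1.04, limma adjusted p = 0.00101), or -1.20 relative to the median of all tested genes, and 3.22% of these had a lower one. Its place in the order of a library was 9516 to 10474 in PR3 KO and 6311 to 7986 in WT. Macrophage markers moved with it: their summed level was 89.3 to 135 FPKM in PR3 KO and 581 to 1187 FPKM in WT. So did endothelial markers, at 878 to 1221 FPKM in PR3 KO and 2439 to 2978 FPKM in WT. Their part in the fall of Pparg was not tested. Of 6 adipocyte markers, 5 averaged under 1 FPKM and were not tested, among them the defining genes Adipoq, Plin1 and Cidec at no more than 0.0167 FPKM in either genotype. The other one, Fabp4, which macrophages and capillary endothelium also express, averaged 132 ± 18.0 FPKM in PR3 KO and 295 ± 131 FPKM in WT (SD, n = 3 each) and fell with Pparg. The summed level of the 6 was 121 to 153 FPKM in PR3 KO and 200 to 445 FPKM in WT, and its part in the fall of Pparg was not tested.

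The make-up of the PPAR transcripts was also set apart by genotype in every library. Within a library, Ppara made up 71.2%, 64.5% and 75.1% of the summed FPKM of the 3 PPAR genes in PR3 KO, against 38.7%, 21.5% and 30.1% in WT. Pparg made up 7.41%, 8.11% and 5.26% in PR3 KO and 26.0%, 39.0% and 36.0% in WT. Ppard made up 22.8% ± 4.05 in PR3 KO and 36.3% ± 2.90 in WT (SD, n = 3 each). In PR3 KO most PPAR transcripts were Ppara in every library, while the WT libraries held the 3 genes in more even shares. The 3 shares sum to the whole in each library, so they restate the values of the genes and are given as a description. The lower Ppard share in PR3 KO stands beside FPKM of Ppard itself that overlapped between genotypes. The shares were chosen as a measure after the values of the genes were seen. The summed FPKM of the 3 genes was 40.8 ± 4.48 in PR3 KO and 28.4 ± 2.83 in WT (SD, n = 3 each), and an exact two-sided permutation test gave p = 0.1, which is the lowest p that 3 against 3 libraries can reach.

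**Figure D2:**
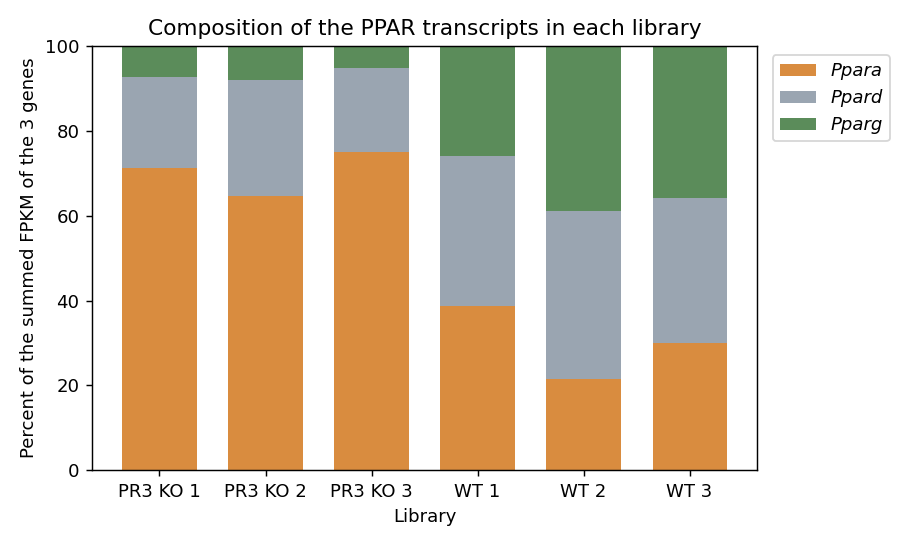
Stacked bars of the percent that Ppara, Ppard and Pparg make up of their summed FPKM, for the 3 PR3 KO libraries and then the 3 WT libraries. Ppara takes 64.5% to 75.1% in PR3 KO libraries and 21.5% to 38.7% in WT libraries.

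Rxra, which encodes an RXR partner of the PPARs and of FXR, was at 41.00, 42.78 and 41.04 FPKM in PR3 KO and 39.76, 32.55 and 34.46 FPKM in WT. The genotypes did not overlap, but the gap between PR3 KO 1 and WT 1 was small. The log2 fold change of 0.22 did not pass (95% interval -0.01 to 0.46, limma adjusted p = 0.0988). Scaled by median of ratios it passed, at 0.55 (limma adjusted p = 0.00990), and it also passed without WT 1, at 0.30 (limma adjusted p = 0.0395). The ratio of Ppara to Rxra was 0.696 ± 0.140 in PR3 KO and 0.234 ± 0.0330 in WT (SD, n = 3 each, exact permutation p = 0.1).

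Nr1h4, the bile acid receptor gene, was at 121.03, 92.79 and 113.33 FPKM in PR3 KO and 54.61, 29.06 and 45.65 FPKM in WT. Every PR3 KO library lay above every WT library, and WT 2 was the lowest of all. The means were 109 ± 14.6 FPKM in PR3 KO and 43.1 ± 13.0 FPKM in WT (SD, n = 3 each), a ratio of 2.53. The log2 fold change was 1.36 (SE 0.22, 95% interval 0.84 to 1.88, limma adjusted p = 0.00249), or 1.61 relative to all tested genes, and it was larger than that of 99.5% of them.

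Hnf4a, the most abundant regulator in all 6 libraries, was at 155.61, 144.34 and 174.27 FPKM in PR3 KO and 111.45, 67.21 and 99.00 FPKM in WT. The genotypes did not overlap, and WT 2 was again the lowest. The means were 158 ± 15.1 FPKM in PR3 KO and 92.6 ± 22.8 FPKM in WT (SD, n = 3 each), a ratio of 1.71. The log2 fold change was 0.79 (SE 0.19, 95% interval 0.35 to 1.24, limma adjusted p = 0.0107), or 1.05 relative to all tested genes. The annotation places the antisense RNA Hnf4aos over this gene. Since the use of strand in counting is not given, reads of the pair cannot be told apart. Annotated noncoding RNA genes also overlap Ppard and Ppargc1b, whose values carry the same uncertainty.

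The rises of Ppara, Nr1h4 and Hnf4a were unequal. The ratio of Ppara to Hnf4a in FPKM was 0.195, 0.160 and 0.190 in PR3 KO and 0.0967, 0.1003 and 0.0784 in WT. The ratio of Nr1h4 to Hnf4a was 0.778, 0.643 and 0.650 in PR3 KO and 0.490, 0.432 and 0.461 in WT. Both ratios were higher in every PR3 KO library than in any WT library (exact two-sided permutation p = 0.1 each, n = 3 each), so relative to Hnf4a both other genes were higher in PR3 KO whatever the scaling. The proximal tubule markers, which moved with these 3 genes, had a median log2 fold change of 0.88, beside 1.67 for Ppara, 1.36 for Nr1h4 and 0.79 for Hnf4a. Single markers ran from 0.48 for Gatm to 2.06 for Kap. Ppara and Nr1h4 lay above all markers except Kap and Slc5a2 (1.75), the next being Slc5a12 at 1.19. Hnf4a lay below the median of the markers.

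When the mean log2 level of the 20 proximal tubule markers was added to the model, 0 of the 9 regulators passed by limma in either direction, and 1 was higher at an unadjusted p under 0.05. The log2 fold changes were then 0.84 for Ppara, 0.17 for Nr1h4, -0.18 for Hnf4a and -0.53 for Pparg (limma adjusted p = 0.534, 0.919, 0.904 and 0.635). The score so added correlated with genotype at 0.918 over the 6 libraries, and with it 1 of all 12388 genes passed, so the marker level and genotype cannot be told apart in this fit. Without WT 2, the library with the lowest proximal tubule score, Ppara, Nr1h4, Hnf4a and Pparg all passed the threshold. Their values were 1.54, 1.10, 0.58 and -1.29 in this order (limma adjusted p = 0.000720, 0.000637, 0.00425 and 0.000517). The scores of WT 1 and WT 3 were 7.79 and 7.42, against 8.38 to 8.41 in PR3 KO. Marker level and genotype therefore cannot be told apart in that fit either.

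**Figure D3:**
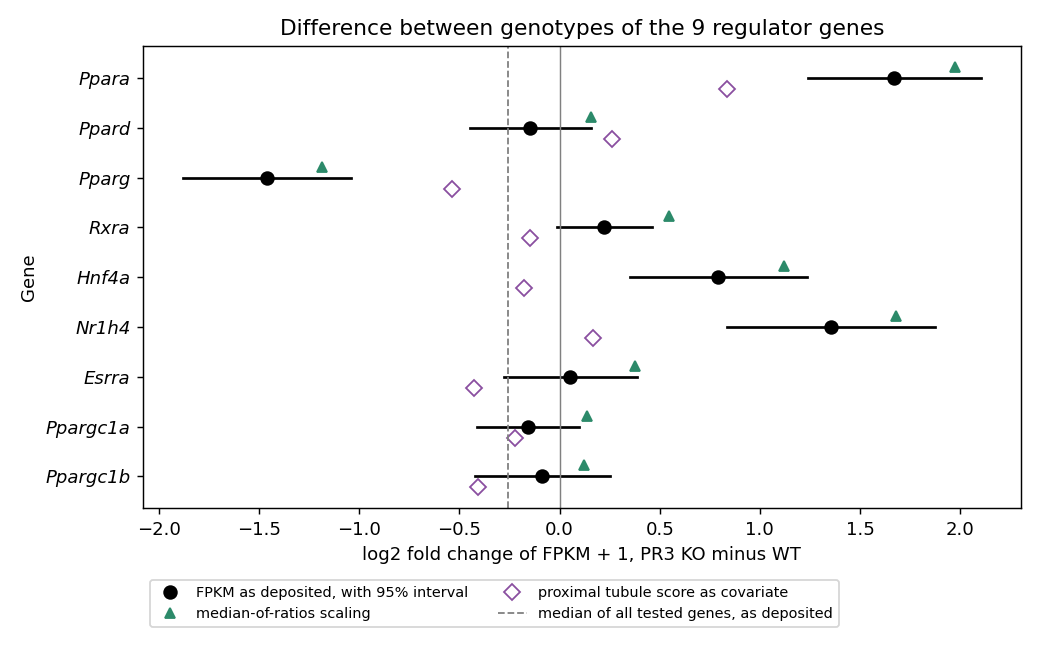
Log2 fold change of FPKM + 1, PR3 KO minus WT, for the 9 genes: circles with 95% intervals for the deposited values, triangles for median-of-ratios scaling and open diamonds for the fit that adds the proximal tubule score. Ppara, Hnf4a and Nr1h4 have intervals above 0 and Pparg one below 0, the triangles lie to the right of the circles by about the shift of all genes, and the diamond of Ppara is at 0.84.

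Esrra, the gene of the orphan receptor ERRα, was at 57.78, 52.48 and 49.90 FPKM in PR3 KO and 54.32, 41.76 and 59.38 FPKM in WT. The genotypes overlapped, and WT held both the lowest and the highest library. The log2 fold change of 0.05 did not pass (95% interval -0.28 to 0.39, limma adjusted p = 0.761). Trmt112, a tRNA methyltransferase subunit gene, overlaps Esrra in the annotation, so the value of Esrra is uncertain.

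The PGC-1 coactivator genes differed in level, and Ppargc1b was the lowest regulator in every library. Ppargc1a was at 7.09, 8.38 and 7.17 FPKM in PR3 KO and 9.11, 8.77 and 7.71 FPKM in WT. Ppargc1b was at 1.33, 1.81 and 2.09 FPKM in PR3 KO and 2.14, 1.67 and 1.89 FPKM in WT. Both overlapped between genotypes, with log2 fold changes of -0.16 for Ppargc1a (95% interval -0.41 to 0.10, limma adjusted p = 0.252) and -0.09 for Ppargc1b (-0.42 to 0.25, limma adjusted p = 0.631). Scaled by median of ratios they were 0.14 and 0.12, neither past the threshold. Ppargc1a made up 81.3% ± 3.49 of the summed FPKM of the pair in PR3 KO and 81.8% ± 1.97 in WT (SD, n = 3 each, exact permutation p = 1).

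In PR3 KO the order of mean levels was Hnf4a, Nr1h4, Esrra, Rxra, Ppara, Ppard, Ppargc1a, Pparg and Ppargc1b, and the FPKM ranges of neighbours in this order did not overlap over the 3 libraries. In WT the order was Hnf4a, Esrra, Nr1h4, Rxra, Ppard, Pparg, Ppargc1a, Ppara and Ppargc1b. There Esrra, Nr1h4 and Rxra overlapped with their neighbours among these 3, as did Ppard, Pparg, Ppargc1a and Ppara among these 4. Ppara thus stood in place 5 in every PR3 KO library and in places 5, 8 and 7 in WT 1, 2 and 3, and Pparg in place 8 in every PR3 KO library and in places 8, 6 and 5 in WT.

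The genes of most like pattern were those with the smallest root mean square difference of centred log2(FPKM + 1) over the 6 libraries. For each regulator 2 are given, and since they were picked by this likeness, shared orders of libraries are a description only. For Ppara they were Slc25a25, a mitochondrial ATP carrier, and Gjb1, a gap junction connexin (differences of 0.115 and 0.132). Slc25a25 was at 64.73, 46.51 and 77.97 FPKM in PR3 KO and 21.01, 13.10 and 15.97 FPKM in WT, with PR3 KO 2 lowest in its group as for Ppara. For Hnf4a they were Slc3a1, a subunit of the cystine transporter of the proximal tubule, and Pgm1, a phosphoglucomutase (0.0490 and 0.0582). For Nr1h4 they were the adrenergic receptor gene Adra2b and Smim24 (0.0657 and 0.0682). For Pparg they were Gdf3, a ligand of the TGF-beta family, and Tlr7, a receptor of single-stranded RNA in myeloid cells (0.0654 and 0.0709). Gdf3 was low, at 0.40, 0.33 and 0.25 FPKM in PR3 KO and 2.02, 3.41 and 2.66 FPKM in WT. At such levels log2(FPKM + 1) understates the change, so the likeness is on that scale only. Tlr7 was at 2.38, 2.45 and 1.91 FPKM in PR3 KO and 5.90, 9.90 and 8.64 FPKM in WT, with WT 2 highest and WT 1 lowest in WT as for Pparg. The nearest to the other regulators were Zfp324 and Lcor for Ppard, Hdhd2 and Mto1 for Rxra, Tmlhe and Mrpl42 for Esrra, Cyp2j6 and R3hdm1 for Ppargc1a, and Cep295 and Itpripl1 for Ppargc1b (differences of 0.0245 to 0.0401).

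Among genes known as PPAR targets of fatty acid breakdown, those that passed the test all rose in PR3 KO. Of 32 listed genes 29 were tested, of which 14 rose and 0 fell by limma (17 and 0 at an unadjusted p under 0.05), with a median log2 fold change of 0.57 beside -0.26 for all tested genes. The rises were 48.3% of the genes tested here, beside 11.7% of all tested genes, of which 41.1% fell. Acsl1, which activates long-chain fatty acids, and Vnn1, the pantetheinase vanin, were at 0.92 and 1.21 in log2 fold change (limma adjusted p = 0.000942 and 0.00138). Cpt2, the inner-membrane carnitine palmitoyltransferase, rose by 0.89 (limma adjusted p = 0.00505). The number that rose was 6 without PR3 KO 1, 6 without PR3 KO 3 and 7 without PR3 KO 3 and WT 2 together. Several of these genes are abundant in proximal tubule, whose markers moved with them. Fitted beside the proximal tubule score, the list had a median of -0.05 and 0 genes past the threshold by limma (1 was higher and 0 lower at an unadjusted p under 0.05).

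Genes known as HNF4A targets showed the highest share of rises among the target lists. Of 20 listed genes 18 were tested, of which 12 rose and 0 fell by limma (14 and 0 at an unadjusted p under 0.05), with a median log2 fold change of 0.84. The rises were 66.7% of the genes tested here, beside 11.7% of all tested genes, of which 41.1% fell. Cdhr5, a brush border cadherin, was at 112 ± 0.781 FPKM in PR3 KO and 58.1 ± 9.47 FPKM in WT (limma adjusted p = 0.00130). The genes Slc22a8 and Pck1, an organic anion transporter and the enzyme that commits to gluconeogenesis, were at 1.87 and 1.81 in log2 fold change (limma adjusted p = 0.000798 and 0.00211). Fitted beside the proximal tubule score, the list had a median of -0.16 and 0 passed by limma (2 were higher and 1 lower at an unadjusted p under 0.05).

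Of 25 mitochondrial genes known as targets of PGC-1 and ERR, 24 were tested, of which 9 rose and 2 fell, with a median of 0.25. These are 37.5% and 8.33%, beside 11.7% and 41.1% of all tested genes. Sirt3, a mitochondrial deacetylase, was at 57.3 ± 7.29 FPKM in PR3 KO and 29.4 ± 4.50 FPKM in WT (log2 fold change 0.94, SE 0.15, limma adjusted p = 0.00186). Cox7a1 and Atp5b, subunits of cytochrome oxidase and of ATP synthase, were at 0.49 and 0.66 in log2 fold change (limma adjusted p = 0.00377 and 0.00961). The transcription factor genes Gabpa and Nrf1, which drive nuclear genes of the respiratory chain, were the pair that fell (-0.62 and -0.54, limma adjusted p = 0.00324 and 0.0123); Nrf1 was chosen after its values were seen. The number that rose was 4 without PR3 KO 1, and with median-of-ratios scaling 15 rose and 1 fell. With that scaling 25.6% of all tested genes rose and 22.2% fell. Fitted beside the proximal tubule score, the list had a median of -0.12 and 0 genes past the threshold in either direction by limma (1 was higher and 0 lower at an unadjusted p under 0.05).

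Of 15 genes of the adipocyte and lipid programme of PPARγ, 9 were tested, of which 2 rose and 4 fell. These are 22.2% and 44.4%, beside 11.7% and 41.1% of all tested genes, so the share that fell was close to that of all genes. The median was -0.21, near that of all tested genes, and 0.09 with median-of-ratios scaling. Abcg1, a cholesterol exporter of macrophages, was at 4.55 ± 0.505 FPKM in PR3 KO and 12.2 ± 3.16 FPKM in WT (log2 fold change -1.22, SE 0.17, limma adjusted p = 0.00131). Fabp4, a fatty acid binding protein of adipocytes, macrophages and capillary endothelium, fell by 1.07 in log2 fold change (limma adjusted p = 0.0149). Cebpa, a transcription factor that acts with PPARγ in adipocytes and is also expressed elsewhere, rose by 0.57 (limma adjusted p = 0.00248). The number that fell was 2 without PR3 KO 1, without PR3 KO 3 or with median-of-ratios scaling, and the number that rose was 1 without PR3 KO 1, without WT 1, without WT 3 or with equal library sums. The macrophage and endothelial markers that moved with Pparg also moved with the genes that fell here, and their part was not tested.

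Few known FXR targets were measurable in these libraries: 5 of 13 were tested, of which 1 rose and 1 fell. Each is 20% of those tested, beside 11.7% rising and 41.1% falling of all tested genes. Slc51a, the alpha subunit of the basolateral organic solute transporter, was at 77.9 ± 9.91 FPKM in PR3 KO and 48.7 ± 11.4 FPKM in WT (log2 fold change 0.69, SE 0.18, limma adjusted p = 0.0157). Without PR3 KO 1 its call was lost, and without WT 2 the number of FXR targets that fell was 2. Its partner Slc51b was at 62.0 ± 11.1 FPKM in PR3 KO and 42.9 ± 20.7 FPKM in WT and did not pass (limma adjusted p = 0.182). Apoc2, a cofactor of lipoprotein lipase that macrophages also express, fell by 1.39 (limma adjusted p = 0.00111).

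Of 39 partner receptors and coregulators, 36 were tested, of which 4 rose and 15 fell, 11.1% and 41.7%, close to the shares of all tested genes. With median-of-ratios scaling 7 rose and 4 fell, where 25.6% of all tested genes rose and 22.2% fell. Vdr, the vitamin D receptor gene, was at 70.3 ± 7.23 FPKM in PR3 KO and 31.5 ± 5.46 FPKM in WT (log2 fold change 1.14, SE 0.14, limma adjusted p = 0.00105). Lpin1, which encodes a phosphatidate phosphatase that also coactivates PPARα, was at 23.3 ± 3.16 FPKM in PR3 KO and 10.6 ± 1.53 FPKM in WT (limma adjusted p = 0.00106). The retinoic acid receptor gene Rarg and the glucocorticoid receptor gene Nr3c1 were at -1.17 and -0.74 in log2 fold change (limma adjusted p = 0.00118 and 0.00129). The number that fell was 9 without PR3 KO 1 or without PR3 KO 3, and the number that rose was 2 without PR3 KO 1, PR3 KO 3, WT 2 or WT 3.

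Beside the proximal tubule score, 0 genes passed by limma in the PPARγ, FXR and partner lists as well. At an unadjusted p under 0.05, 1 gene was higher and 1 lower in the PPARγ list, 0 and 2 in the FXR list, and 1 and 1 in the partner list. The medians of the log2 fold changes were then -0.35, -0.93 and -0.13 in these lists.

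**Figure D4:**
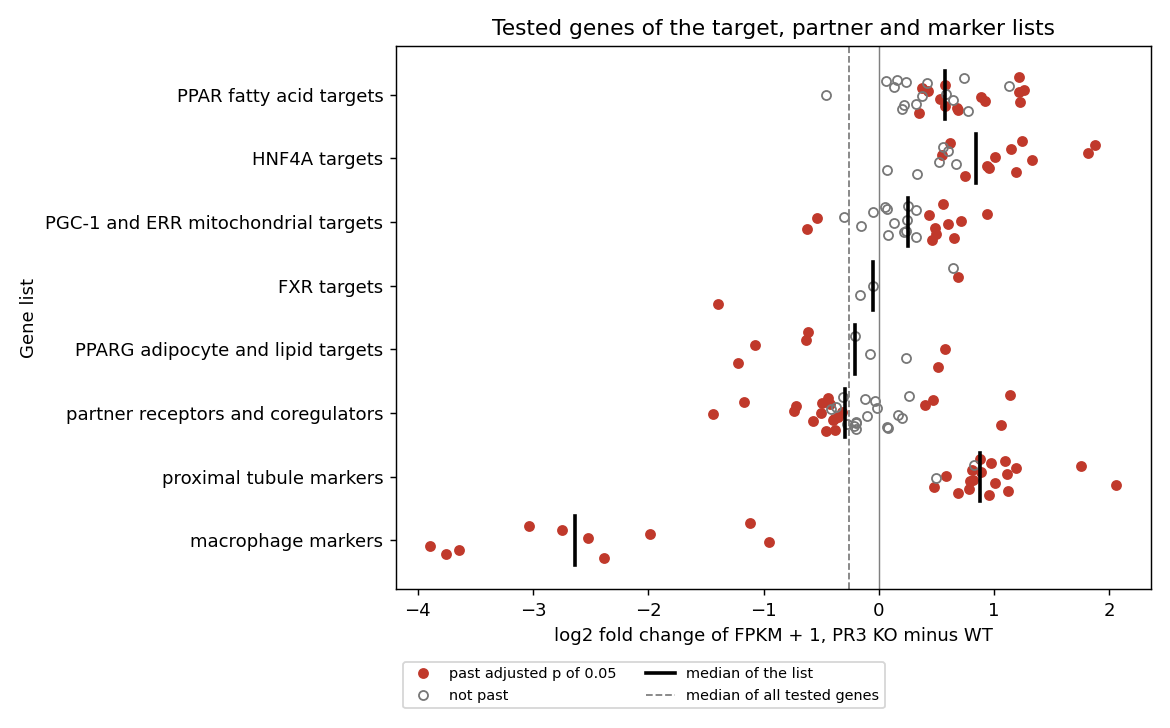
Log2 fold change of FPKM + 1, PR3 KO minus WT, of each tested gene of the target, partner and marker lists, filled where limma's adjusted p was under 0.05, with a bar at each list's median and a dashed line at the median of all tested genes (-0.26). The bars of the fatty acid and HNF4A lists lie at 0.57 and 0.84, near that of the proximal tubule markers at 0.88, and the macrophage markers lie at a median of -2.64.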

How the data were processed

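Trizol RNA was purified with oligo(dT) beads, which favour polyadenylated transcripts, and read on DNBSEQ, per the labels' protocols. Per the submitters' processing notes, Bowtie2 and the build GRCm38.p6 were used. The tool that made the FPKM, its annotation and its use of strand are not given in the sources. The deposited values are FPKM, per the file headers, rounded to 2 decimals, without counts, so the depth is unknown. Of 22064 Entrez IDs, 3242 were empty in every library. Symbols came from a RefSeq table of GRCm38.p6 (18770 of 18822 matched).

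In R 4.3.3, limma 3.58.1 (statmod 1.5.0) was fitted to log2(FPKM + 1) for the 12388 genes averaging 1 FPKM or more. The model held genotype alone, with a trended, robust variance, and p-values were adjusted by Benjamini-Hochberg over all of them. Fold changes are PR3 KO minus WT on that scale, which understates the change of low genes. Ratios and shares were compared by exact two-sided permutation tests. The fit was tested on simulated data. Python 3.11.15, pandas 2.3.3, numpy 2.4.6, scipy 1.17.1 and matplotlib 3.10.9 were used.

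The members, lists and tests were chosen with earlier results of these data known. From each target or partner list the text names up to 4 genes of smallest adjusted p past the threshold, and 2 genes of most like pattern per member; some genes that this rule picks are not reported here. Alternatives were median-of-ratios scaling, equal library sums, a pseudocount of 0.1, no filter, a mean of at least 5 FPKM, no variance trend, a replicate block, each library left out, PR3 KO 3 and WT 2 left out together, and a proximal tubule covariate.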

Additional observations from a re-analysis of the deposited data

How the results depend on the processing

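The calls of Ppara, Nr1h4, Hnf4a and Pparg each held in 14 of 15 alternatives and were lost with the proximal tubule covariate, where 0 members rose and 0 fell (1 and 0 at an unadjusted p under 0.05), 1 of all genes rose and 0 fell by limma (189 and 940 at an unadjusted p under 0.05), and Ppard, Rxra, Esrra and Hnf4a changed sign (0.26, -0.15, -0.43 and -0.18); beyond the score's correlation with genotype, the cause was not tested. Over all genes 3158 rose and 2742 fell with median-of-ratios scaling, where Ppard, Ppargc1a and Ppargc1b turned to 0.16, 0.14 and 0.12, and 928 rose with equal library sums, where Esrra turned to -0.11. With each library left out in turn, 3 to 4 members rose and 1 fell, and 916 to 1518 of all genes rose (916 without PR3 KO 1, 936 without PR3 KO 3) and 3873 to 4731 fell. Esrra ranged from -0.09 to 0.16 in these fits and Ppargc1b from -0.18 to 0.03, changing sign without being called. Ppargc1b was 0.0262 and Esrra -0.0027 without PR3 KO 1, and Esrra was -0.0903 without WT 2. Without PR3 KO 3 and WT 2 together Ppard was 0.0187 and Esrra -0.0438. Ppargc1b has no value at a mean of at least 5 FPKM, since it lies below that filter. Of 180 list counts recomputed, 140 stayed within 1.5 times the reported count.

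Over all tested genes, deviations of same-numbered libraries correlated at 0.0677, 0.270 and -0.0866 for numbers 1, 2 and 3. Pairs of unlike number ran from -0.26 to 0.322, so the numbers are not taken to pair the libraries. With the replicate number as a block 3 members rose and 1 fell, and 1550 of all genes rose and 5143 fell. There 18 PPAR fatty acid targets rose. The SE went from 0.19 to 0.12 for Ppara, from 0.22 to 0.13 for Nr1h4 and from 0.19 to 0.15 for Hnf4a. It was also smaller for Ppard, Pparg and Esrra, and slightly larger for Ppargc1a, Ppargc1b and Rxra. Since the depth is unknown, no counting error can be given for low genes such as Ppargc1b and most FXR targets.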
